A study of Mus musculus with 69 samples.

Results

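The endothelin system was examined through 6 of the 56953 genes in the count tables. These were the ligand genes Edn1 and Edn3, the receptor genes Ednra and Ednrb and the converting enzyme genes Ece1 and Ece2. They were taken by their Ensembl identifiers from the tables of WT VSMC, KO VSMC and EC, whatever their values.

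Endothelins are short peptides that are cut from longer precursors, with the last cut made by an endothelin-converting enzyme. In the vessel wall endothelial cells are the main source of endothelin-1, the product of Edn1. The ETA receptor, encoded by Ednra, sits mainly on smooth muscle and drives contraction through Gq, phospholipase C and calcium, whereas the ETB receptor, encoded by Ednrb, drives release of nitric oxide and prostacyclin from endothelium and clears the peptide.

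RNA was sequenced from cultured primary cells of male C57BL/6 mice, in 16 libraries of WT VSMC, 15 of KO VSMC and 38 of EC. VSMC came from the aorta and were deprived of serum before exposure. For KO VSMC, Egfr was floxed on both alleles (Egfr flox/flox) and Cre was driven by SM22, so that the knockout depended on the activity of a smooth muscle promoter. EC came from the heart after depletion of CD45+ cells and selection with CD31 beads. Cells were kept for 24 h under Control conditions, with HG + FFA (20 mM glucose and 100 µM each of the free fatty acids oleate and palmitate), with AII + NA (30 nM angiotensin II and 300 nM of a catecholamine, which the labels call epinephrine and the study norepinephrine) or with ALL stressors together. Albumin was present in all conditions. The libraries formed 18 sets, each of 1 animal and treated in parallel, with sets 1 to 4 for WT VSMC, 5 to 8 for KO VSMC and 9 to 18 for EC. There were 4 libraries per condition of WT VSMC, 4 of KO VSMC except 3 under ALL, and 9 (Control, AII + NA) or 10 (HG + FFA, ALL) of EC. EC came from 9 animals, as sets 17 and 18 shared 1. EC sets 15 and 16 are labelled WT but carry the animal numbers of KO VSMC sets 7 and 6. Sets 1 and 9 shared an animal too, as did sets 2 and 10. All VSMC libraries are in batch B1 and all EC libraries in batch B2, so that cell type and batch cannot be told apart.

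Total counts per library lay between 17166133 and 43240489. Levels are given as FPM, counts normalised to library size as edgeR's CPM, with TMM scaling over all 69 libraries. For Egfr, the targeted gene, WT VSMC sets averaged 246.1 to 430 FPM and KO VSMC sets 6 to 8 only 0.96 to 1.84 FPM, but KO VSMC set 5 held 36.5 FPM. In EC, Egfr was at 9.31 and 2.61 FPM in sets 15 and 16 and at 12.6 to 154.4 FPM in the other sets. KO VSMC set 5 also stood apart by 238.9 FPM of Myh11, a smooth muscle myosin, against 2.75 to 7.62 FPM in the other KO VSMC sets. In EC, Pecam1, which encodes CD31, ranged from 18.1 to 42.4 FPM in sets 9, 11 and 13 and from 259.6 to 1594.3 FPM in the other 7 sets. The 10 endothelial markers summed to 60.4 FPM in the lowest and 4517.6 FPM in the highest EC set, and to at most 62.4 FPM in VSMC. The 5 fibroblast markers were high in all cell types, with set sums of 609.3 to 9993.8 FPM in EC and 1525.3 to 9377.5 FPM in VSMC. Smooth muscle markers summed to 213.6 to 3254.7 FPM in EC. The 5 leukocyte markers summed to at most 30.1 FPM in a set of WT VSMC, 25.3 FPM in KO VSMC and 11.7 FPM in EC, with 3, 3 and 2 of them at 1 FPM or more and Cd3e under 0.1 FPM. In such bulk cultures, fewer cells of a type and less RNA per cell cannot be told apart.

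Between genes, levels were compared as FPM per exonic kilobase under Control conditions. In WT VSMC, Ece1 led with 24.1 ± 9.36 (SD, n = 4), followed by Edn1 with 4.31 ± 2.19, Ednrb with 2.64 ± 1.77, Ednra with 2.62 ± 1.18 and Ece2 with 0.736 ± 0.0788. Every library placed Ece1 above the other members, while the ranges of Edn1, Ednrb and Ednra overlapped and that of Ednrb reached down to that of Ece2. The same first 2 places were held in KO VSMC by Ece1 with 37.7 ± 15 and Edn1 with 7.19 ± 1.61, and the remaining 3 overlapped. In EC the order was Ece1 with 124.6 ± 83.1 (SD, n = 9), Edn1 with 65.1 ± 68, Ednrb with 4.06 ± 4.16, Ednra with 0.593 ± 0.591 and Ece2 with 0.221 ± 0.205, with overlap between each neighbouring pair. Edn3 was at 0 in all Control libraries. Of the 6 members, 5 passed the filter on low counts in each cell type, and Edn3 failed it everywhere.

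Edn1 lies at chr13:42446301-42461466 on the plus strand of GRCm39, and Edn3 at chr2:174602088-174625835, also on the plus strand. The coding stretches of the 2 mature peptides are shown because the ligands differed so widely in level. Both lie in exon 2, Edn1 at chr13:42457125-42457187 and Edn3 at chr2:174603542-174603604, with the codons of the 4 cysteines in capitals.
Edn1: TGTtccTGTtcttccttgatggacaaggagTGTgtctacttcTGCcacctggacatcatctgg
Edn3: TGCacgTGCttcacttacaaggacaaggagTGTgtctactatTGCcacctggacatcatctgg
These 63 bases, 21 codons, were identical at 50 positions (79.4%), and the cysteine codons stand at the same places.

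Edn3, which encodes endothelin-3, the ligand that prefers ETB, was not detected above the limit of this depth. The 16 libraries of WT VSMC held 6 of its reads in all, KO VSMC libraries 1 and EC libraries 3, and 12, 14 and 37 libraries of these cell types were at 0. A count of 0 allows up to 3 counts, which equals 0.0817 to 0.14 FPM in WT VSMC, 0.0864 to 0.142 FPM in KO VSMC and 0.07 to 0.185 FPM in EC. Edn2, which encodes the third endothelin and is no member, gave 1, 3 and 8 reads in the 3 cell types. Such limits cover counting error only. In these cultures Edn1 was thus the only endothelin gene with more than 6 reads in any library.

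Under ALL stressors Edn1 rose about 3-fold in WT VSMC, and its response differed from set to set. Under Control conditions, it stood at 6.4, 20.2, 11.9 and 8.78 FPM in sets 1 to 4. HG + FFA gave 5.13, 22.6, 22.6 and 14.7 FPM, AII + NA 14.8, 46.1, 22.6 and 58 FPM, and ALL 6.46, 47.2, 38 and 77 FPM. Set 4 thus rose to 8.77 times its Control under ALL, sets 2 and 3 to 2.34 and 3.2 times, and set 1 only to 1.01 times, although AII + NA had brought set 1 to 2.32 times. Across libraries, the ALL and Control values overlapped, because set 1 stayed low.

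The fitted log2FC for ALL versus Control in WT VSMC was 1.59 ± 0.35 (SE), a 3.01-fold increase with an edgeR FDR of 0.0111, and Edn1 was higher in 4 of 4 sets. Without set 4 it was 1.07 with an FDR of 0.0576, and in the fit that left out the set term 1.83 with an FDR of 0.686. A gene is referred to as called where its edgeR FDR was under 0.05. Edn1 and Ednrb were the 2 of 5 tested members called in this comparison, with 7.45% of all genes tested. AII + NA gave a log2FC of 1.5 ± 0.35 with an FDR of 0.139, again higher in 4 of 4 sets, and DESeq2 gave 1.49 with an FDR of 0.0472. HG + FFA gave 0.38 ± 0.35 with an FDR of 0.746. The 3 stressor comparisons share their Control libraries.

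The separate stressors and their combination were compared directly. ALL versus HG + FFA gave an Edn1 log2FC of 1.21 ± 0.34 (FDR 0.167) and ALL versus AII + NA 0.09 ± 0.33 (FDR 0.942). Departure from additivity, the log2 effect of ALL less the sum of both single effects, was -0.29 ± 0.47 with an edgeR FDR of 1. For Edn1 the difference between ALL and AII + NA was smaller than its standard error.

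**Figure D1:**
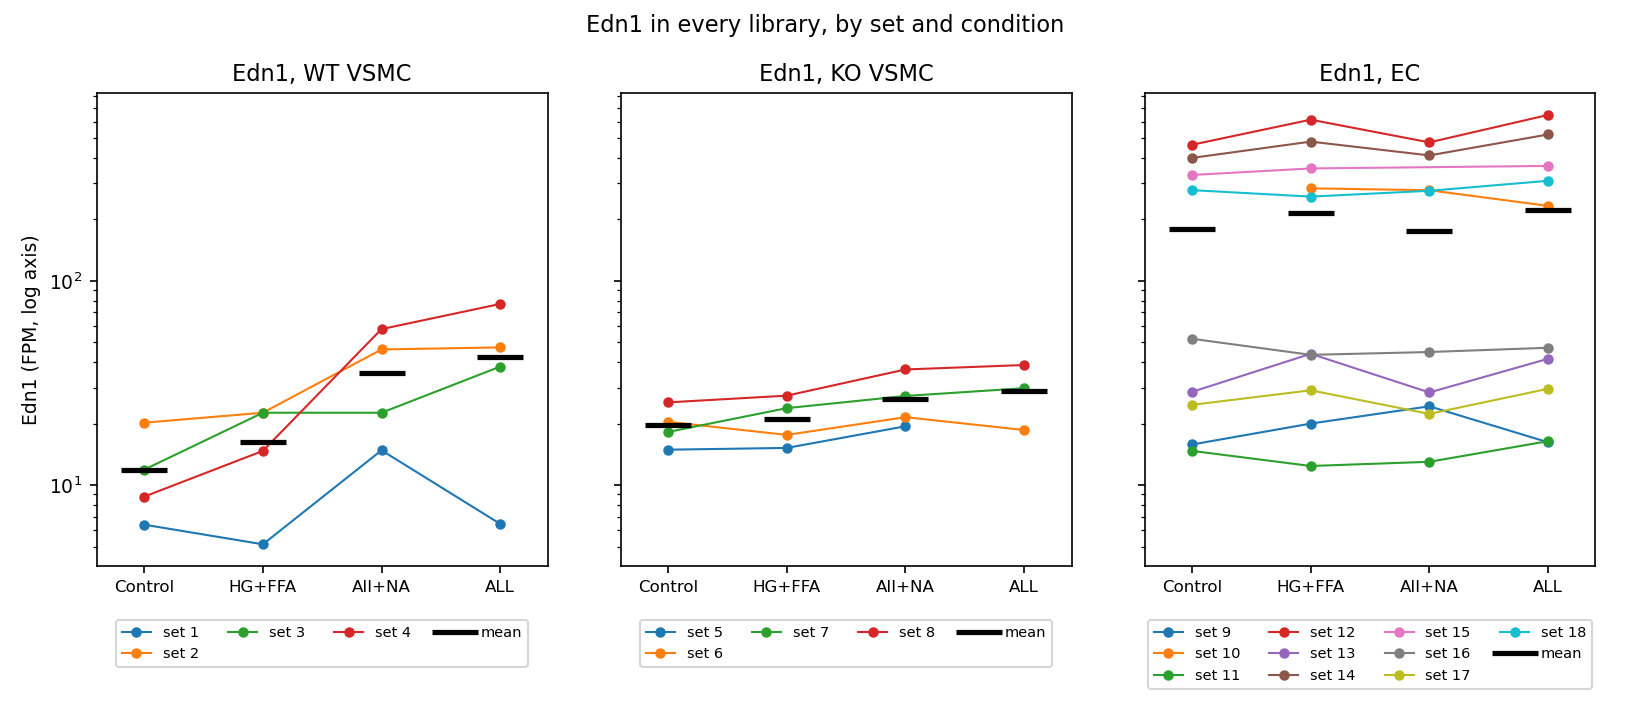
Edn1 in FPM (log axis) by condition, with a line for each set and a black bar for the mean of a condition, separately for the 3 cell types. WT VSMC set 4 climbs from 8.78 to 77 FPM and set 1 returns to 6.46 FPM under ALL, whereas EC sets keep their own level between 12.4 and 648 FPM in all conditions. Set 5 has no ALL, set 10 no Control and set 15 no AII + NA library.

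In KO VSMC Edn1 moved little. Control libraries of sets 5 to 8 held 14.9, 20.4, 18.2 and 25.4 FPM, HG + FFA 15.2, 17.6, 23.8 and 27.4 FPM and AII + NA 19.4, 21.5, 27.3 and 36.8 FPM. Under ALL, sets 6 to 8 held 18.6, 29.8 and 38.7 FPM, with set 6 below its Control. All 4 sets were higher under AII + NA than under Control, and values of the conditions overlapped. The log2FC was 0.07 ± 0.12 with HG + FFA (FDR 0.82), 0.38 ± 0.12 with AII + NA (FDR 0.509) and 0.39 ± 0.13 with ALL (FDR 0.293). The difference of the effects, WT VSMC minus KO VSMC, was 1.12 ± 0.4 for AII + NA (FDR 0.395) and 1.19 ± 0.42 for ALL (FDR 0.469), so that a difference between genotypes was not called. These differences were 0.79 (FDR 0.812) and 0.69 (FDR 0.99) without WT VSMC set 4, and 1.12 (FDR 0.133) and 1.2 (FDR 0.275) without KO VSMC set 5.

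A difference in the Control level of Edn1 between genotypes was not called, at 11.8 ± 6.01 FPM in WT VSMC and 19.7 ± 4.42 FPM in KO VSMC (SD, n = 4 each, log2FC 0.74 ± 0.34, FDR 0.415).

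In EC the level of Edn1 depended on the set, and 4 of the 10 sets averaged within the range of the WT VSMC sets, 8.2 to 39.6 FPM. The Control libraries had a lowest value of 14.7, a median of 52 and a highest value of 463.2 FPM. Sets 10, 12, 14, 15 and 18 had means of 264.5 to 550.4 FPM, and sets 9, 11, 13, 16 and 17 had means of 14.1 to 46.8 FPM. The latter hold the 3 sets that were low in Pecam1, but also sets 16 and 17 with 259.6 and 263 FPM of Pecam1. Sets 17 and 18 came from the same animal and had Edn1 means of 26.4 and 280 FPM, Pecam1 means of 263 and 1111.8 FPM and Col1a1 means of 2954.8 and 202.4 FPM. Between sets the Edn1 mean varied 39-fold, against 1.27-fold between conditions.

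No stressor effect on Edn1 was called in EC, where the log2FC was 0.17 ± 0.09 with HG + FFA (FDR 0.335), 0.05 ± 0.09 with AII + NA (FDR 0.915) and 0.2 ± 0.09 with ALL (FDR 0.254). ALL was higher than Control in 8 of 9 sets. The Control median of 52 FPM compares with 151 FPM in HG + FFA, 44.8 FPM in AII + NA and 139.8 FPM in ALL, but set 10, a high set, has no Control library. Effects on Edn1 in WT VSMC exceeded those in EC by a log2 difference of 1.44 ± 0.29 for AII + NA (FDR 0.0257) and 1.37 ± 0.29 for ALL (FDR 0.00808). It was the only member called in either difference, where 0.0465% and 0.511% of all genes were called. The difference for ALL was 0.86 with an FDR of 0.241 without WT VSMC set 4. That for AII + NA was lost without WT VSMC set 4 (1.11, FDR 0.309), without WT VSMC set 2 (1.57, FDR 0.15) without EC sets 15 and 16 (1.42, FDR 0.0995) and without EC sets 9, 11 and 13 (1.52, FDR 0.13).

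Control EC had 178.4 ± 186.4 FPM of Edn1 (SD, n = 9) against 11.8 FPM in WT VSMC, a log2FC of 3.93 ± 1.13 with an FDR of 0.0383. Called in this comparison were 2 of the 5 tested members, Edn1 and Ece1, with 12% of all genes. Leaving out any WT VSMC set raised the FDR of Edn1 to between 0.0865 and 0.112, at a log2FC of 3.72 to 4.31, and leaving out EC sets 15 and 16 raised it to 0.0675. Without EC sets 9, 11 and 13 the log2FC was 4.47 (FDR 0.00327). WT VSMC set 2 had 13 FPM of Pecam1 and 18.9 FPM of the endothelial cadherin gene Cdh5. In sets 1, 3 and 4 Cdh5 was near the floor, at 0.641, 0.0582 and 0.452 FPM. Under ALL in WT VSMC, where Edn1 rose, Cdh5 fell with a log2FC of -1.17 ± 0.25 (FDR 0.00994). Of the 10 endothelial markers, 0 rose and 2 fell in that comparison, which called 7.45% of all genes. Of the 8 smooth muscle markers 1 rose, Tagln, with a list median of 0.73, and of the 4 pericyte markers 2 fell, Kcnj8 and Rgs5, with a list median of -0.54. The part of shifts between such cells in the rise of Edn1 and Ednrb was not tested.

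Promoters of the members were searched for motifs of factors known to act on Edn1. In 300-base windows from RefSeq, placed from 250 bases before to 50 after an annotated start, both strands were searched for the AP-1 motif TGANTCA, the motif GATAA of GATA factors, the hypoxia response core ACGTG and the cAMP response motif TGACG. The table of 32851 windows is built on GRCm38.p6, and the stretches below were placed on GRCm39 by exact match. Edn1 and Ednrb are shown because they were the members that rose in WT VSMC. The Edn1 window held a GATA and a hypoxia core match, both in the first exon of the canonical GENCODE transcript, at chr13:42454954-42454983 on the plus strand, and the Ednrb window a cAMP response motif at chr14:104081323-104081352 on the minus strand. The Ednrb stretch begins 215 bases before the RefSeq start but lies inside the annotated gene, in 1 exon of a transcript other than the canonical one. Matches are in capitals, and the Edn1 matches read as the reverse complement of the motifs.
Edn1: cgggtcTTATCtctggctgCACGTtgcctg
Ednrb: ggctgagtgcatTGACGtatgcccttggcc
Of all windows, 25.4% held a GATA match, 19.6% a hypoxia core, 20.8% a cAMP response motif and 7.81% an AP-1 match. None of the 9 windows of members held TGANTCA, and AP-1 sites spelled otherwise were not searched for. The hypoxia core also matched in 1 Ece1 window, at 2 places, and in the Ece2 window. Neither gene was called in WT VSMC for a stressor condition against Control. The part of these motifs in the changes of any member was not tested.

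Ednrb, which encodes ETB, lies at chr14:104052053-104081900. It rose in WT VSMC under ALL stressors in every set, although its level differed widely between sets. Sets 1 to 4 held 12.6, 8.92, 3.54 and 22.4 FPM under Control and 17.4, 13.1, 5.11 and 26.8 FPM under HG + FFA. AII + NA gave 14.7, 8.71, 3.78 and 35.6 FPM and ALL 20, 13, 4.25 and 48.5 FPM. Each set kept its rank, with set 4 highest and set 3 lowest in all conditions, so that the conditions overlapped across sets. ALL brought the sets to 1.58, 1.46, 1.2 and 2.17 times their Control. The log2FC for ALL was 0.69 ± 0.15, a 1.62-fold increase with an FDR of 0.0096. It kept an FDR of 0.0174 to 0.0444 when any WT VSMC set was left out, and had an FDR of 1 in the fit that left out the set term. HG + FFA gave 0.45 ± 0.15 (FDR 0.225) with 4 of 4 sets higher, and AII + NA 0.27 ± 0.15 (FDR 0.605).

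Ednrb was higher in the VSMC sets that also held Sox10, a transcription factor of neural crest and Schwann cells. Sox10 was at 9.43, 6.83, 0.0529 and 6.85 FPM in WT VSMC sets 1 to 4, at 18.9 FPM in KO VSMC set 5 and at 0 to 0.632 FPM in sets 6 to 8. The set means of Ednrb were 16.2, 10.9, 4.17 and 33.3 FPM in WT VSMC, 7.21 FPM in set 5 and 0.644 to 3.93 FPM in sets 6 to 8. Under ALL stressors Sox10 had a log2FC of -0.12 ± 0.2 in WT VSMC (FDR 0.786), while Ednrb rose. The part of such cells in the Ednrb level was not tested.

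In KO VSMC Ednrb did not pass the test in any condition. Sets 5 to 8 held 7.58, 1.04, 0.5 and 3.17 FPM under Control, 5.72, 0.521, 0.648 and 5.23 FPM under HG + FFA and 8.33, 0.73, 0.752 and 4.28 FPM under AII + NA. Under ALL, sets 6 to 8 held 0.957, 0.675 and 3.02 FPM. Sets 6 and 7 stayed near or below 1 FPM throughout. The log2FC was -0.03 ± 0.26 with HG + FFA, 0.15 ± 0.26 with AII + NA and -0.04 ± 0.31 with ALL, with FDR of 0.974, 0.821 and 0.976. The difference of the ALL effects, WT VSMC minus KO VSMC, was 0.78 ± 0.32 and was not called (FDR 0.608). Control levels of 11.9 ± 7.94 FPM in WT VSMC and 3.07 ± 3.22 FPM in KO VSMC (SD, n = 4) gave a log2FC of -1.95 ± 0.82 (FDR 0.408), and without KO VSMC set 5 of -2.94 (FDR 0.081).

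Ednrb was the member that rose in EC, under HG + FFA and under ALL. Its lowest, median and highest values were 0.755, 11.4 and 52.8 FPM in Control, 1.23, 21.5 and 91.6 FPM in HG + FFA, 0.693, 12.1 and 44.8 FPM in AII + NA and 1.66, 20 and 61.9 FPM in ALL. Both HG + FFA and ALL were above Control in 8 of 9 sets, and all conditions overlapped. The log2FC was 0.51 ± 0.15 for HG + FFA (FDR 0.0449), where it was 1 of 5 tested members called with 3.53% of all genes, and 0.59 ± 0.15 for ALL (FDR 0.0203), where Ednrb and Ece1 were called with 3.18% of all genes. AII + NA gave 0.15 ± 0.16 (FDR 0.836). Without EC sets 9, 11 and 13 the values were 0.49 (FDR 0.0505) for HG + FFA and 0.35 (FDR 0.215) for ALL. In those 3 sets ALL raised Ednrb to 1.87, 2.2 and 4.43 times Control, and in the other 6 sets with a Control library it stood at 0.963 to 1.55 times. The HG + FFA call was also lost without EC sets 15 and 16 (0.59, FDR 0.0924). Of the 9 endothelial markers tested, 1 was called in these 2 comparisons, Emcn, which rose in both. Of the markers of other cell types, Col1a1 (fibroblast) and Cspg4 (pericyte) fell under HG + FFA and Upk3b (mesothelial) rose under ALL. The part of such cells in the Ednrb changes was not tested.

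Set means of Ednrb in EC ran from 1.09 to 5.18 FPM in sets 9, 11 and 13 and from 10.7 to 60.3 FPM in the others. Control levels in EC and WT VSMC gave a log2FC of 0.63 ± 0.89 (FDR 0.668).

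Ednra, which encodes ETA, lies at chr8:78386590-78451552 on the minus strand. It was lower under AII + NA than under Control in all 4 WT VSMC sets. Control values of sets 1 to 4 were 23.2, 27.4, 9.15 and 34.5 FPM, HG + FFA values 24.7, 34, 10.3 and 32.6 FPM, AII + NA values 16.2, 20.7, 8.29 and 22.5 FPM and ALL values 23.6, 21.9, 8.32 and 23.8 FPM. Set 3 was the lowest in each condition. The log2FC for AII + NA was -0.43 ± 0.1 with an edgeR FDR of 0.155, and DESeq2 gave -0.41 with an FDR of 0.034. HG + FFA gave 0.12 ± 0.1 (FDR 0.712) and ALL -0.24 ± 0.1 (FDR 0.173). ALL was below HG + FFA in 4 of 4 sets, with a log2FC of -0.36 ± 0.1 (FDR 0.167).

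KO VSMC set 5 stood apart in Ednra. Sets 5 to 8 held 32.8, 2.91, 2.47 and 4.91 FPM under Control, 27.3, 3.53, 2.36 and 8.36 FPM under HG + FFA and 27.2, 3.48, 2.26 and 4.87 FPM under AII + NA, while sets 6 to 8 held 3.96, 2.46 and 6.97 FPM under ALL. The libraries of sets 6 to 8 stayed at or below 8.36 FPM, and of the WT VSMC libraries only set 3 under AII + NA (8.29 FPM) and ALL (8.32 FPM) came that low. No effect of a stressor was called in KO VSMC, with log2FC between -0.07 and 0.23 and FDR of 0.658 to 0.881. Control levels gave a KO VSMC versus WT VSMC log2FC of -1.13 ± 0.82 (FDR 0.545), and without set 5 of -2.79 ± 0.47 (FDR 0.0308). Fits that left out each VSMC set in turn gave -2.79 to -0.8 (FDR 0.0308 to 0.8). Set 5 was itself the outlying KO VSMC set in Ednra, so its removal lowers the KO VSMC level by construction. Without it 397 of 16492 genes were called, against 1 of 16089 with it. Set 5 was also the KO VSMC set with the most Egfr and the most Myh11 RNA.

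In EC Ednra was low where Pecam1 was high. Sets 9, 11 and 13 had means of 7.47 to 15.1 FPM and the other sets of 0.463 to 5.53 FPM. The lowest, median and highest values were 0.303, 3.51 and 16.4 FPM for Control and 0.334, 2.79 and 15.9 FPM for ALL. No stressor effect was called, with log2FC of -0.33 ± 0.21 in HG + FFA (FDR 0.461), -0.02 ± 0.23 in AII + NA (FDR 0.992) and -0.21 ± 0.21 in ALL (FDR 0.677). Against WT VSMC the Control log2FC was -2.13 ± 0.72 (FDR 0.0651), and without EC sets 9, 11 and 13 it was -3.4 ± 0.61 (FDR 0.00267). Pdgfra, a fibroblast marker, ranged from 61.2 to 552 FPM over the EC sets and Col1a1 from 30.6 to 5802.7 FPM, and the part of these cells in the Ednra level was not tested.

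**Figure D2:**
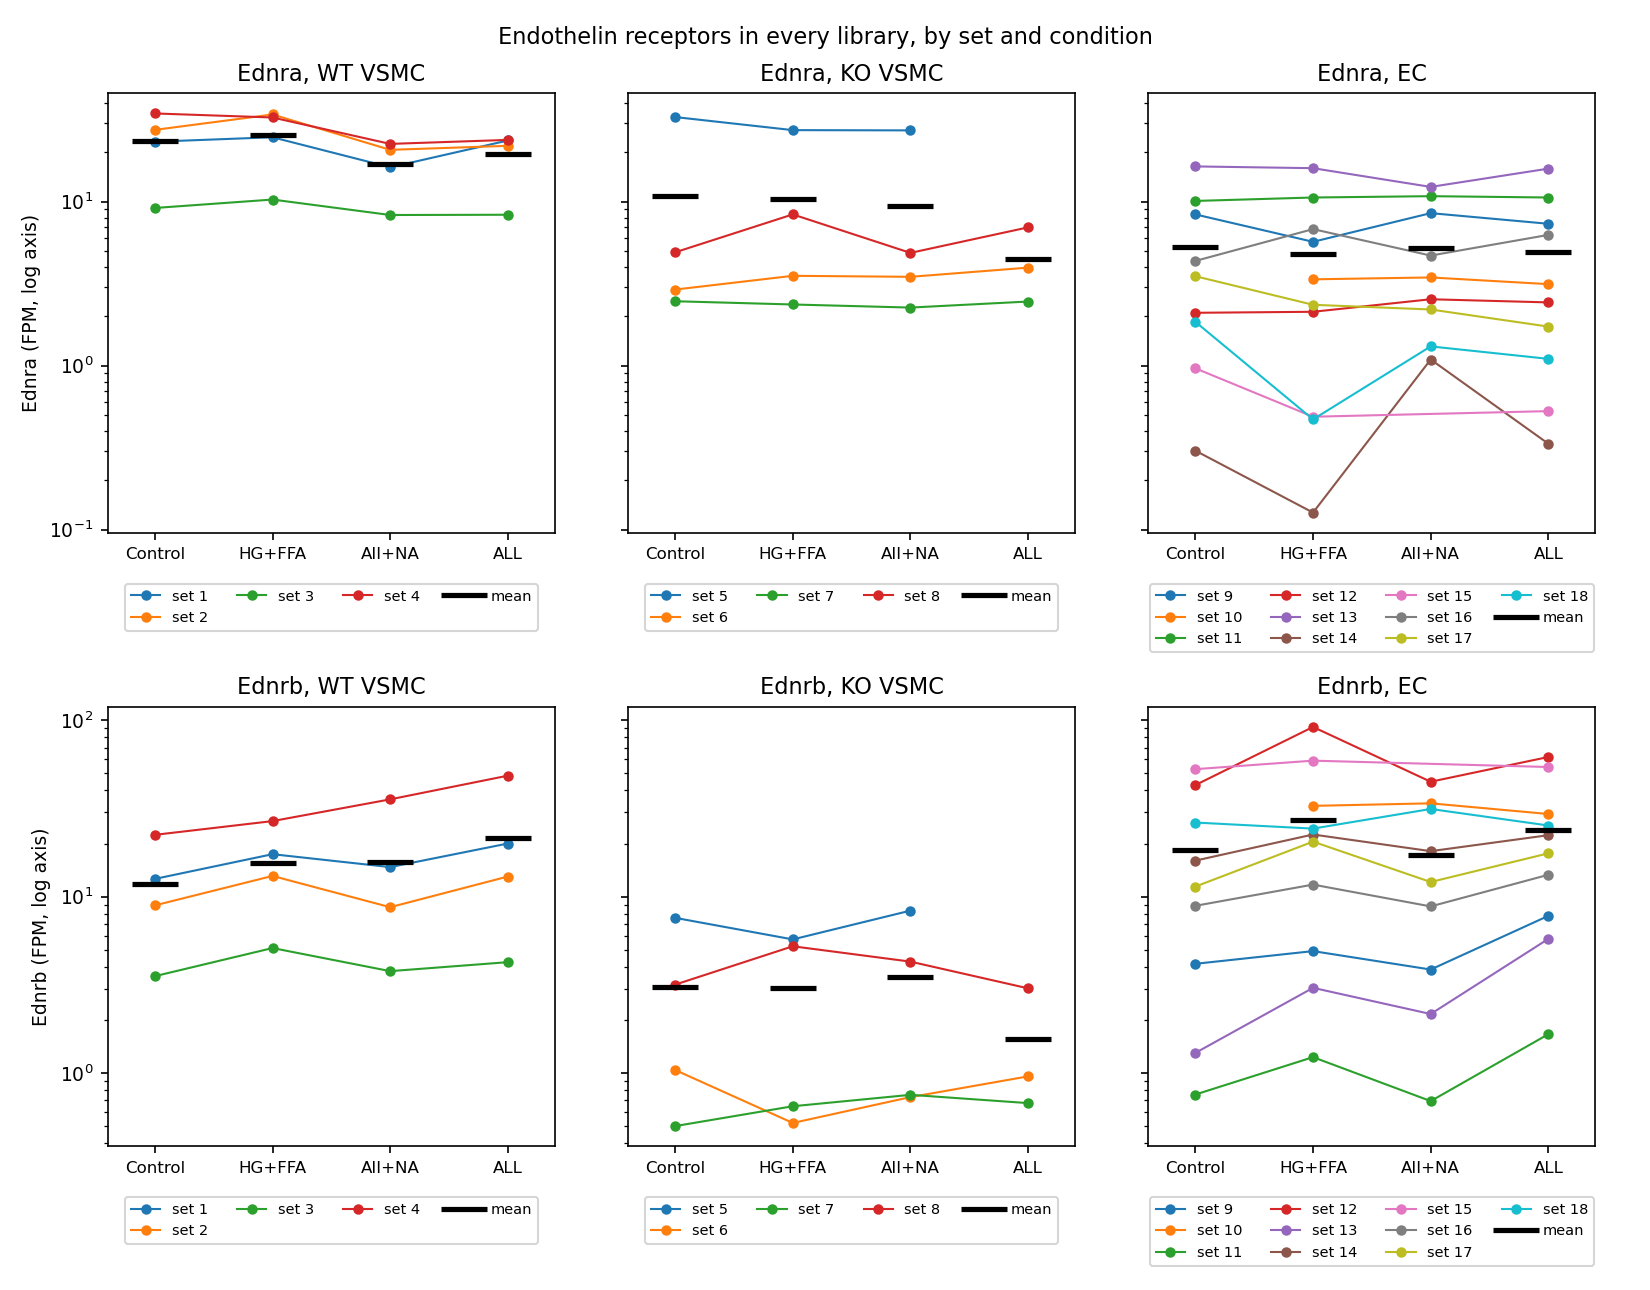
Ednra (upper row) and Ednrb (lower row) in FPM (log axes) by condition, with a line for each set and a black bar for the mean. KO VSMC set 5 holds 27.2 to 32.8 FPM of Ednra above the other KO VSMC sets, and Ednrb lines rise from Control to ALL in all 4 WT VSMC sets.

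**Figure D3:**
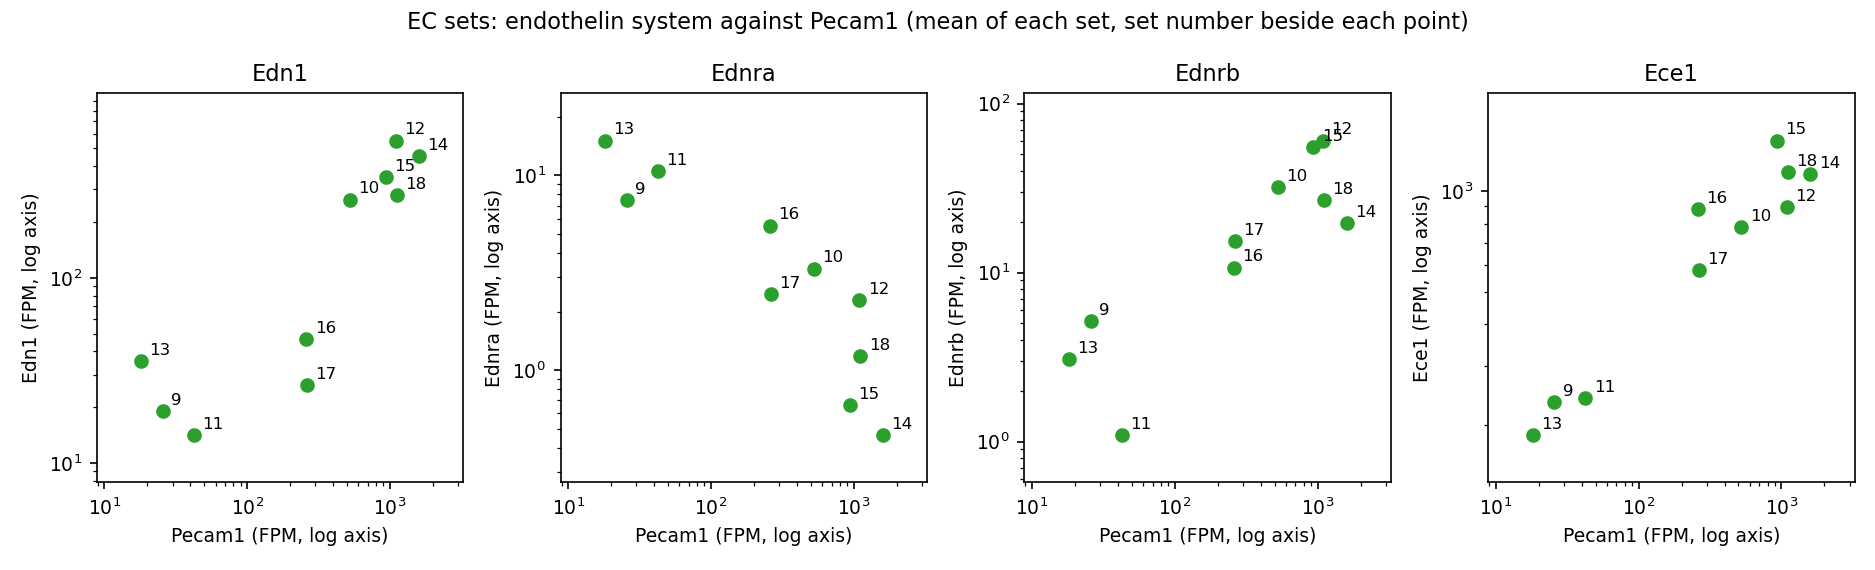
Set means in EC of Edn1, Ednra, Ednrb and Ece1 against Pecam1, all in FPM on log axes, with the set number beside each point. Sets 9, 11 and 13 lie at 18.1 to 42.4 FPM of Pecam1 with low Ednrb and Ece1 and high Ednra, and sets 16 and 17 lie low in Edn1 at 259.6 and 263 FPM of Pecam1.

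Ece1, which encodes the main converting enzyme of big endothelin-1, lies at chr4:137589530-137692542 and was the most abundant member. In WT VSMC sets 1 to 4 held 192.6, 197, 67.2 and 184.2 FPM under Control, 144.5, 204.5, 58.6 and 176.2 FPM under HG + FFA, 175.3, 259.4, 70.6 and 201.4 FPM under AII + NA and 190.5, 161.1, 56.9 and 173.2 FPM under ALL. Set 3 was low throughout, and ALL was below Control in 4 of 4 sets. The log2FC was -0.15 ± 0.1 with HG + FFA (FDR 0.621), 0.12 ± 0.1 with AII + NA (FDR 0.758) and -0.15 ± 0.1 with ALL (FDR 0.424).

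KO VSMC held 106.6 to 376.8 FPM of Ece1 over all 15 libraries, with set 8 lowest. Stressor effects there had a log2FC of -0.12 ± 0.11, 0.04 ± 0.11 and -0.23 ± 0.12 for HG + FFA, AII + NA and ALL, and none was called (FDR of 0.523 to 0.885). Control levels were 160.2 ± 62.3 FPM in WT VSMC and 251.1 ± 100.1 FPM in KO VSMC (SD, n = 4, log2FC 0.64 ± 0.4, FDR 0.497).

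In EC Ece1 fell under ALL. The lowest, median and highest values were 210.1, 803.5 and 1755.7 FPM in Control, 162.7, 762.3 and 1333.8 FPM in HG + FFA, 184, 908.2 and 1268.8 FPM in AII + NA and 137.2, 717.8 and 1162.4 FPM in ALL. ALL was lower in 7 of 9 sets, with a log2FC of -0.32 ± 0.09 and an FDR of 0.0497, just under the threshold. Without EC sets 9, 11 and 13 it was -0.34 (FDR 0.0294), without EC sets 15 and 16 -0.33 (FDR 0.108), and with sets 17 and 18 summed as 1 animal -0.29 (FDR 0.101). HG + FFA gave -0.25 ± 0.09 (FDR 0.129) and AII + NA -0.01 ± 0.1 (FDR 0.99). Control EC had more Ece1 than WT VSMC, 828.6 ± 553 against 160.2 ± 62.3 FPM (SD), with a log2FC of 2.38 ± 0.62 (FDR 0.0261). The FDR lay between 0.0702 and 0.0819 when any WT VSMC set was left out and was 0.0595 without EC sets 15 and 16, while without EC sets 9, 11 and 13 the log2FC was 2.83 (FDR 0.000708).

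Ece2, the second converting enzyme, lies at chr16:20448332-20465273 and was low in all cell types. WT VSMC libraries ranged from 2.66 to 6.41 FPM, KO VSMC libraries from 1.45 to 5.62 FPM and EC libraries from 0 to 4.32 FPM, with 2 EC libraries at 0. In WT VSMC the log2FC was -0.02 ± 0.16 for HG + FFA (FDR 0.978), -0.21 ± 0.17 for AII + NA (FDR 0.755), lower in 4 of 4 sets, and -0.17 ± 0.17 for ALL (FDR 0.604). In KO VSMC all 3 sets with ALL were below Control, with a log2FC of -0.52 ± 0.22 (FDR 0.429), and all 4 were at or above Control under AII + NA (0.27 ± 0.19, FDR 0.585). EC gave log2FC of -0.71 ± 0.47, -0.59 ± 0.49 and -0.67 ± 0.47 for HG + FFA, AII + NA and ALL, none called (FDR of 0.476 to 0.795). The Control difference between EC and WT VSMC was -1.72 ± 0.76 (FDR 0.142), and without EC sets 9, 11 and 13 -2.7 ± 0.74 (FDR 0.0193).

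Exons shared with other genes limit 3 members. Ece2 shares 44.3% of its exonic bases with the readthrough gene Eef1ece2 on the same strand, which had 0 FPM in each cell type. The study lists -M and -t exon as featureCounts options, and none that assigns reads in exons of both genes. If such reads were dropped, the level of Ece2 per exonic kilobase is understated. For genes on opposite strands the limit depends on the strand setting of the counting, and the listed options name none. Ednra shares 27.2% of its exonic bases with the opposite strand gene Gm45714, which averaged 1.3 FPM in WT VSMC. Edn1 shares 1.28% with the antisense lncRNA Gm47118, which averaged 0.0728 FPM in WT VSMC, and 21.2% with the antisense lncRNA Gm60910, which has no row in the count tables.

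**Figure D4:**
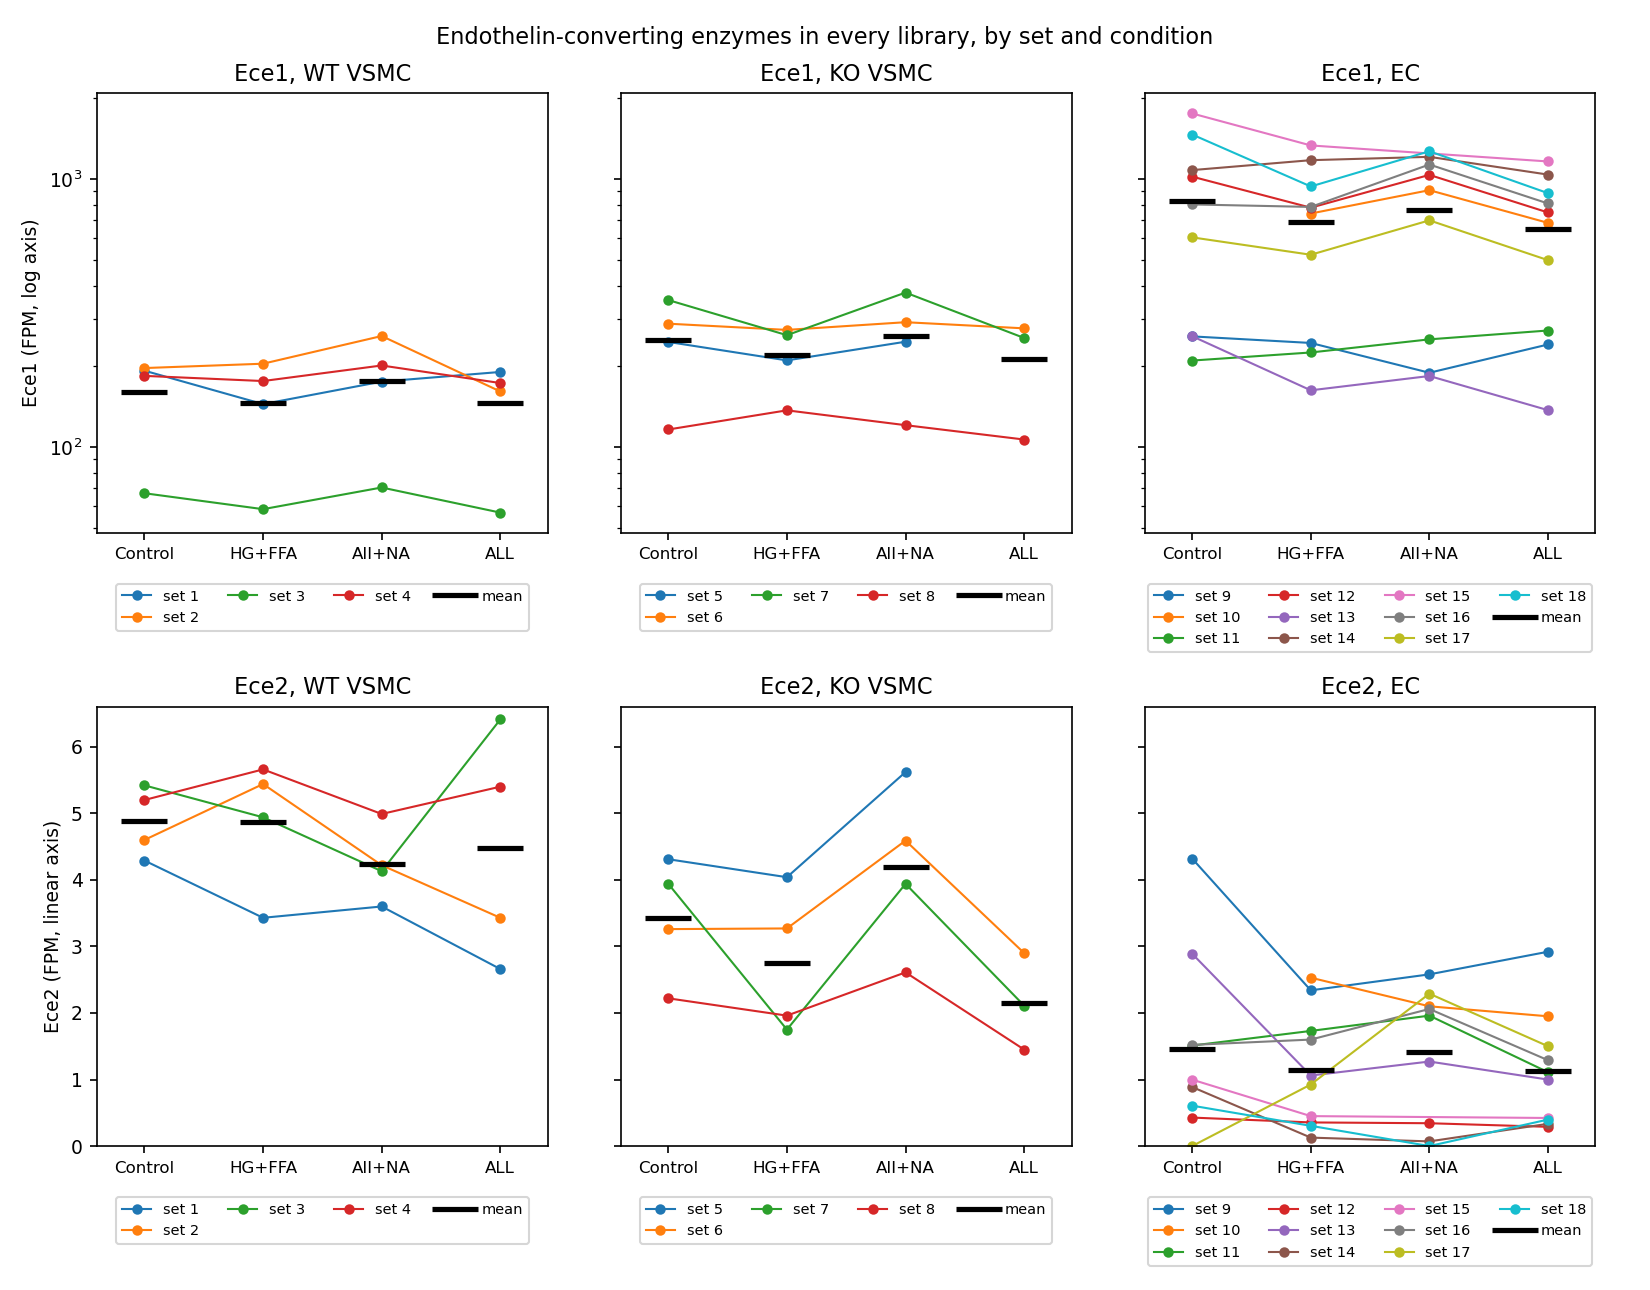
Ece1 (upper row, log axis) and Ece2 (lower row, linear axis) in FPM by condition, with a line for each set and a black bar for the mean. EC holds up to 1755.7 FPM of Ece1, and Ece2 is at most 6.41 FPM in any library.

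**Figure D5:**
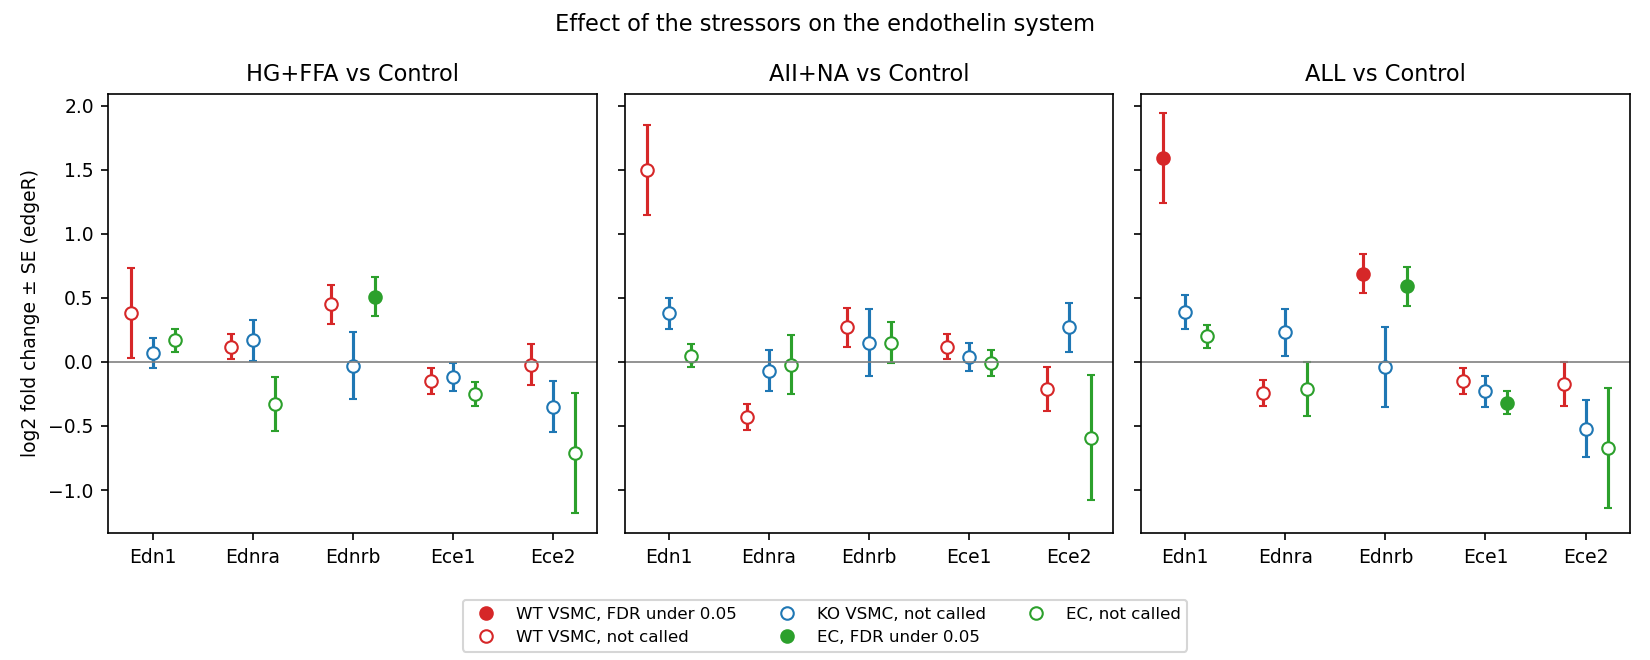
Log2FC ± SE of the 5 tested members under HG + FFA, AII + NA and ALL versus Control, in WT VSMC (red), KO VSMC (blue) and EC (green), with filled points for an FDR under 0.05 in edgeR. Filled are Edn1 (1.59) and Ednrb (0.69) in WT VSMC under ALL, Ednrb in EC under HG + FFA (0.51) and ALL (0.59), and Ece1 in EC under ALL (-0.32).

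In the remaining 14 of the 20 comparisons, edgeR called 0 of the 5 tested members. For WT VSMC, 0.538% of all genes were called under HG + FFA, where 1 member (Ednrb) and 11.2% of all genes had an unadjusted p under 0.05 and DESeq2 called 0 members. Under AII + NA 0.0532% of all genes were called, 2 members (Edn1 and Ednra) and 9.42% of all genes had an unadjusted p under 0.05, and DESeq2 called both members and 1.13% of all genes. ALL versus HG + FFA called 0.0414% of genes, with 2 members (Edn1 and Ednra) and 10.8% of all genes at an unadjusted p under 0.05. ALL versus AII + NA called 1.36%, with 2 members (Ednrb and Ece1) and 14.3% of all genes at such a p. DESeq2 called 0 members in either. For departure from additivity edgeR called 0% of genes, and 0 members had an unadjusted p under 0.05 or were called by DESeq2.

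For KO VSMC edgeR called 0.439% of genes under HG + FFA, 0% under AII + NA and 0.399% under ALL. Members with an unadjusted p under 0.05 numbered 0, 1 (Edn1) and 2 (Edn1 and Ece2), beside 12.4%, 9.76% and 10.5% of all genes, and DESeq2 called 0 in each. EC under AII + NA had 0% of genes called, 0 members and 6.67% of all genes with an unadjusted p under 0.05 and 0 members called by DESeq2. The WT VSMC minus KO VSMC differences had 0%, 0% and 0.0109% of genes called for HG + FFA, AII + NA and ALL, with 0, 1 (Edn1) and 3 members (Edn1, Ednra and Ednrb) at an unadjusted p under 0.05 and 0 called by DESeq2. At an unadjusted p under 0.05 stood 3.08%, 11.9% and 7.42% of all genes in these 3 differences. The WT VSMC minus EC difference for HG + FFA had 0% of genes called, 2.05% of all genes at such a p and 0 members by any count. Control KO VSMC versus WT VSMC had 0.00622% of genes called, 1 member (Ednrb) and 12.2% of all genes at an unadjusted p under 0.05 and 0 members called by DESeq2.

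Genes that make, cut or clear endothelins were read from a list of 10, of which 7 were tested in VSMC and 6 in EC. In WT VSMC 1 fell under ALL, Mme, which encodes neprilysin, a peptidase that degrades endothelin, with a log2FC of -0.9 ± 0.24 (FDR 0.0307). The list's median was 0.11, beside -0.01 over all genes, and 7.45% of all genes were called. In EC 1 fell under ALL, the proprotein convertase gene Pcsk6, with -0.36 ± 0.1 (FDR 0.0286) and a list median of -0.23. That comparison called 3.18% of all genes. None was called in KO VSMC, beside 0.439%, 0% and 0.399% of all genes under HG + FFA, AII + NA and ALL. Under HG + FFA and AII + NA none was called in WT VSMC (0.538% and 0.0532% of all genes) or EC (3.53% and 0%). Between the cell types, Pcsk6 was higher in EC (1.6 ± 0.43, FDR 0.0309) and Ctsa, which encodes the lysosomal protective protein, was lower (-0.96 ± 0.22, FDR 0.0151). There 12% of all genes were called.

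Of 33 genes that couple endothelin receptors to contraction and desensitisation, 30 were tested in WT VSMC and EC and 31 in KO VSMC. Mylk, which encodes the kinase of the myosin light chain, rose in WT VSMC under AII + NA (1.09 ± 0.18, FDR 0.0441) and under ALL (1.11 ± 0.18, FDR 0.00211). Under ALL the receptor kinase gene Grk5 rose as well (0.23 ± 0.06, FDR 0.0362) and the inositol trisphosphate receptor gene Itpr3 fell (-0.43 ± 0.1, FDR 0.0188). Thus 2 rose and 1 fell under ALL with a median of 0.06. Of all genes 7.45% were called under ALL and 0.0532% under AII + NA. None of the list was called in KO VSMC, beside 0.439%, 0% and 0.399% of all genes under HG + FFA, AII + NA and ALL. In EC the protein kinase C gene Prkce rose under HG + FFA (0.22 ± 0.06, FDR 0.0235) and ALL (0.23 ± 0.06, FDR 0.0194) and Prkcd fell under ALL (-0.21 ± 0.06, FDR 0.0264). Of all genes in EC 3.53% were called under HG + FFA and 3.18% under ALL. The ALL effect on Mylk was higher in WT VSMC than in EC by 1.28 ± 0.26 (FDR 0.0073), where 0.511% of all genes were called. Control EC exceeded WT VSMC in 9 of 31 tested genes, in a comparison that called 12% of all genes in either direction, among them Itpr1 (2.21), Plcb1 (2.28), Prkca (1.18) and Grk5 (1.13), and were lower in 1, with a list median of 0.67 beside 0.05 over all genes.

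All 28 listed regulators of Edn1 transcription were tested. In WT VSMC under ALL 2 rose and 5 fell, beside 7.45% of all genes called, with a median of -0.01. Those with the smallest FDR were Klf2, a flow-responsive factor that represses Edn1 (-1.04 ± 0.12, FDR 0.000234), Klf4 (-0.58 ± 0.1, FDR 0.0033), the SRF coactivator gene Mrtfa (0.44 ± 0.08, FDR 0.00439) and the AP-1 gene Jun (-0.57 ± 0.12, FDR 0.00818). Klf2 fell under HG + FFA as well (-0.87 ± 0.12, FDR 0.00268), where 0.538% of all genes were called but Edn1 was not. Under AII + NA 0 of the 28 were called, beside 0.0532% of all genes. The part of these regulators in the level of Edn1 was not tested. In KO VSMC Klf2 was the only one called, under ALL (-1.06 ± 0.21, FDR 0.0424), beside 0.399% of all genes. In EC under HG + FFA Klf2 (-0.82 ± 0.24, FDR 0.0465) and Jun (-0.42 ± 0.11, FDR 0.0215) fell and Tead1 rose (0.32 ± 0.07, FDR 0.00509), beside 3.53% of all genes called. ALL versus AII + NA in WT VSMC lowered Klf2 (-1.01), Jun (-0.69) and Klf4 (-0.45), beside 1.36% of all genes called. Gata4 averaged 49.4 to 348.5 FPM per EC set and 0.073 to 0.858 FPM per WT VSMC set. It was 1 of 3 regulators higher in EC, beside Epas1 (4.06 ± 0.78) and Tead1 (1.41 ± 0.24), while Klf4 (-1.44 ± 0.29) was 1 of 2 that were lower. The EC versus WT VSMC comparison called 12% of all genes.

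Of 11 genes of vasodilator pathways, 10 were tested in VSMC and 9 in EC. In WT VSMC under ALL 1 rose, the natriuretic peptide clearance receptor gene Npr3 (0.73 ± 0.15, FDR 0.00676), with a list median of 0.17. That comparison called 7.45% of all genes. Gucy1a1, a subunit of the nitric oxide receptor, was higher under ALL than under AII + NA (0.63 ± 0.14, FDR 0.0403), beside 1.36% of all genes called. In EC 1 fell under HG + FFA, the cyclooxygenase gene Ptgs1 (-0.29 ± 0.09), beside 3.53% of all genes called. Its FDR rounds to 0.05 and lay just under the threshold. None of the list was called in KO VSMC, beside 0.439%, 0% and 0.399% of all genes under HG + FFA, AII + NA and ALL.

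Genes whose pattern in WT VSMC was most like that of a member were ranked by Pearson's r of log2(FPM + 0.1) after removal of the set mean, over 16 libraries that share sets and conditions and 11200 protein-coding genes. For Edn1 these were Cpb1 (0.97), Cyp39a1 (0.96), Abhd17c (0.96), Lhfpl6 (0.95) and Gyg1 (0.95), with r of 0.23 to 0.51 in KO VSMC and -0.01 to 0.56 in EC. Ednra was followed by Man1c1 (0.96), Prrt1 (0.94), Kifc2 (0.93), Arrb1 (0.93), which encodes β-arrestin 1, and Slx4ip (0.92). Ednrb came with Cyp26b1 (0.95), a retinoic acid hydroxylase gene that also had an r of 0.74 in EC, and with H2bc24, Xkr4, Tmem44 and Slc6a6 (0.9 to 0.92). Ece1 came with Rasa3 (0.93), Il6ra (0.93), Dab2ip (0.92), Galnt10 (0.9) and Itga2 (0.9), of which Rasa3 and Itga2 had an r of 0.82 and 0.85 in KO VSMC. The best match of Ece2 was lower, Klhl9 with 0.85, before Twist1 (0.84), Orc3, Efcab7 and Fbxl17. These values describe the ranking, in which high r are found among many genes, and carry no test.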

How the data were processed

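Poly(A) RNA was sequenced as read pairs. The authors aligned the reads with HISAT2 (2.1.0, mm39) and assigned them to exons of the Ensembl annotation with featureCounts, counting reads with several alignments, and deposited raw counts per gene. Strand was not given in the sources used here. Gene names, positions and exon lengths came from GENCODE on GRCm39. In edgeR 4.0.16 (R 4.3.3), genes were filtered by filterByExpr, scaled by TMM and fitted by the quasi-likelihood test with condition and set, Control comparisons between cell types without set. FDR is the Benjamini-Hochberg value over all genes tested, called under 0.05. Members and lists were chosen with earlier results of these data known. Named genes are the 6 members, called genes of the lists (at most 4 per list and comparison, by FDR), the 5 genes most like each member with at least 3 FPM, and Egfr. Cell type markers, Edn2 and genes that overlap members are named outside this rule, and which of them were singled out was decided after their values were seen. Set numbers pair libraries of 1 animal, and within a set deviations from condition means correlated with r of at least 0.5 (WT VSMC), 0.67 (KO VSMC) and 0.7 (EC). No 2 libraries of a group were duplicates. In fits with set, p-values rest on the spread left after the set and condition terms, pooled over all conditions in a fit and moderated across genes. They do not rest on the set-to-set spread of the compared difference alone, which can be wider. In the Control comparisons without set they measure the spread between sets. EC sets of a shared animal counted as separate sets. The models of WT VSMC and of the genotype differences were tested on simulated data, with the outcome not reported here. DESeq2 1.42.0 and Python 3.11.15 served for alternatives and summaries.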

Additional observations from a re-analysis of the deposited data

Results flagged for a closer look

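Within groups of 4 to 10 libraries with a mean of at least 1 FPM, 55 groups were tested for a library far from the others, and chance alone flags about 1 in 20. Of them 4 were flagged. In WT VSMC under ALL, Ednra in set 3 (8.32 FPM) lay below the next library (21.9 FPM), with a gap of 0.877 of the range. Ednra in KO VSMC set 5 lay above the next library by 0.919 of the range under Control (32.8 against 4.91 FPM) and by 0.895 under AII + NA (27.2 against 4.87 FPM). Ece1 in WT VSMC set 3 under Control (67.2 FPM) lay below the next library (184.2 FPM) by 0.902 of the range.

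Edn1 was flagged because its stressor effect differed between WT VSMC and EC by a test of the difference, by 1.44 on the log2 scale under AII + NA and by 1.37 under ALL. Edn1 was above its Control in 4 of 4 WT VSMC sets in both conditions, and in 3 of 8 and 8 of 9 EC sets.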

How the results depend on the processing

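Numbers of called members follow. Without the set as a replicate block, which the paired design uses, 0 members were called in WT VSMC ALL (2 with it), EC HG + FFA (1), EC ALL (2) and the WT VSMC minus EC differences for AII + NA and ALL (1 each), and no other of these counts changed. Over all genes, the fits without the block called 0 in WT VSMC and in both differences and 2 each in EC HG + FFA and ALL. Without a filter on low counts, 2 were called in WT VSMC HG + FFA, AII + NA and ALL versus HG + FFA, 1 in ALL versus AII + NA, 2 in EC HG + FFA and 1 in the genotype differences for AII + NA and ALL. Beside them 575, 625, 653 and 966 of 33583 genes were called in WT VSMC, 886 of 36539 in EC and 350 and 323 of 35709 in the differences. Those fits had an infinite prior df. DESeq2 called 2 in WT VSMC AII + NA. With 2 conditions only, 1 was called in WT VSMC HG + FFA and in AII + NA, and 0 in EC HG + FFA and ALL. Genes called in these fits were 234 of 16278, 129 of 16008, 247 of 15789 and 154 of 15634, in that order. The study's DEG rule requires calls by edgeR and DESeq2, absolute log2FC of at least 0.64 and a mean of at least 3 FPM. It gave 0 members in EC HG + FFA and in EC ALL. EC HG + FFA also had 0 without sets 15 and 16 (255 of 17334 genes called) and without sets 9, 11 and 13 (451 of 17464). In EC ALL 1 was called with DESeq2's size factors, with sets 17 and 18 summed, without sets 15 and 16 and without sets 9, 11 and 13. Beside it 529 of 17148, 504 of 17040, 292 of 17334 and 334 of 17464 genes were called, in that order. The AII + NA difference to EC fell to 0 without sets 15 and 16 (4 of 19363 genes called) and without sets 9, 11 and 13 (5 of 19202). EC versus WT VSMC had 0 without sets 15 and 16, where 987 of 16903 genes were called. It had 4 without sets 9, 11 and 13, a choice made after seeing the data. That fit called 4799 of 16827 genes, against 2062 of 17115 with all sets. With 1 replicate left out, counts ran from 1 to 2 in WT VSMC ALL, 0 to 1 in the AII + NA and ALL differences to EC, 0 to 1 in KO VSMC versus WT VSMC (1 without set 5) and 0 to 0 in EC versus WT VSMC.

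Over all genes, ALL in WT VSMC had 1259 calls, 494 without set 4 and 0 without the block. Plain library totals moved no group mean beyond its SD. No called log2FC changed sign. Low counts limit Edn3 and Ece2, and Ednrb in KO VSMC, with as few as 15 reads in a library. In EC they limit Ednrb and Ednra, with as few as 12 and 3 reads in a library.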
